A study of Homo sapiens with 12 samples.

Results

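The genes described here are 35 genes of the amino acid response that is driven by the transcription factor ATF4. They were read from a gene count table of libraries labelled as 2 human melanoma cell lines. They were chosen by symbol from knowledge of the pathway, with earlier results of these data known. Each of the 35 symbols matched 1 row, of 58307 rows that name a gene. Of these genes 12 were grouped as regulators of the stress response and 11 as enzymes of amino acid and one-carbon synthesis. Another 9 are plasma membrane amino acid transporters or their partner chain, and 3 (VLDLR, STC2 and XPOT) have other roles. The group of regulators also holds CHAC1, an enzyme that degrades glutathione, and KLHL24, a substrate adaptor of a ubiquitin ligase.

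Cells read a shortage of amino acids, misfolded protein or haem deficiency through kinases that phosphorylate the initiation factor eIF2. General translation then slows while the ATF4 message is translated more, and ATF4, usually as a dimer with a C/EBP protein, turns on genes that make, import and charge amino acids. Translation of ATF4 is also raised by the kinase complex mTORC1, which rapamycin inhibits, in addition to the kinases of eIF2.

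A375 and SK-MEL-28, malignant melanoma lines, were given etoposide, an inhibitor of topoisomerase II, either alone or together with rapamycin, which was added as an inducer of autophagy. The 4 groups were A375 with etoposide, A375 with etoposide + rapamycin, SK-MEL-28 with etoposide and SK-MEL-28 with etoposide + rapamycin, with 3 polyA-enriched libraries in each. All 12 libraries therefore carry etoposide, no untreated or rapamycin-only cells enter any comparison, and the labels give neither dose nor time of the RNA samples. The labels do not tie the 3 libraries of a group to separate cultures; the study describes them as biological replicates, and p-values measure the spread between them.

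Depth ran from 28190672 to 32499659 counts per library. Of the melanocyte lineage markers, SOX10 (5134 to 16540 counts), S100B (1683 to 3504) and S100A1 (2181 to 6985) were well detected in every library, whereas the pigmentation markers that define differentiated melanocytes were near 0 under both labels: TYR had 0 to 6 counts, MLANA 11 to 42, TYRP1 11 to 55, DCT 6 to 67 and PMEL 46 to 92. Of 8 lineage markers tested, 4 fell with rapamycin in A375 (MITF, DCT, S100B and S100A1), beside 13.8% of all genes. Under the SK-MEL-28 label 1 fell (MITF), beside 10.1% of all genes. MITF had 361 to 946 counts and a log2 fold change of -0.51 in A375 (edgeR adjusted p = 0.00248). Its value under the other label was -0.50 (adjusted p = 0.0032). Among the pigmentation markers named above, DCT alone passed, and only in A375. LYZ, a blood cell marker, was 16.5 to 16.9 CPM (counts as a share of the library, scaled by TMM over the 12 libraries) in A375 with etoposide and 5.81 to 7.20 CPM with rapamycin, and 30.5 to 33.4 and 14.8 to 19.4 CPM in SK-MEL-28; summed markers of endothelial cells and fibroblasts were lower too (20.7 to 25.6 and 14.6 to 15.7 CPM, 29.7 to 38.5 and 19.8 to 23.5 CPM), and their part in the results was not tested. In a check for mixed-up samples, 6 of the 12 libraries did not match the record of the cell line on their label. All 6 carry the label SK-MEL-28. That name below is therefore only the name on the label, and every SK-MEL-28 value carries this doubt. The check could not flag a library labelled A375, so it did not test the identity of those. The A375 results, fitted on the A375 libraries alone, do not rest on the 6 labelled SK-MEL-28.

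Many promoters of this pathway carry a composite site for ATF4 and a C/EBP protein. The motif TGATGNAA was searched on both strands in RefSeq promoters of GRCh38.p14, from 250 bases before to 50 bases after each start. RefSeq windows were matched for 29 of the 35 genes, and 10 of them (34.5%) held the motif in at least 1 window, against 4.46% of 27305 genes. Counted by window, the shares were 20.4% of 49 and 3.62% of 35116. The genes were listed as ATF4 targets partly because of such sites, so these shares describe the list. The 7 stretches here are those of genes that passed a test below and of ASNS, each 60 bases on the sense strand with the motif in capitals, and are shown for the bases around it; the likeness within the capitals was set by the search.
CEBPG: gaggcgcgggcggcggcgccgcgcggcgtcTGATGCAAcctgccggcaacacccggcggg
ATF3: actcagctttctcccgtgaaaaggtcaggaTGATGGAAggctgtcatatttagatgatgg
CHAC1: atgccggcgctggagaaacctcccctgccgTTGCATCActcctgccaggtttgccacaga
ASNS: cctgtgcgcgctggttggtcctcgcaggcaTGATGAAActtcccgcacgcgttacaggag
SLC1A4: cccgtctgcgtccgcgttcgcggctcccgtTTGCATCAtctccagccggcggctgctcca
SLC1A5: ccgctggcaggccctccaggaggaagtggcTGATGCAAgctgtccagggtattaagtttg
SLC38A1: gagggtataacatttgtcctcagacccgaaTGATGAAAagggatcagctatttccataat
These lie at chr19:33374041-33374100 (+), chr1:212565186-212565245 (+), chr15:40953232-40953291 (+), chr7:97872447-97872506 (-), chr2:64989362-64989421 (+), chr19:46784882-46784941 (-) and chr12:46266491-46266550 (-) in the order shown. CHAC1 and SLC1A4 carried the motif on the other strand, so that the strand printed here reads TTGCATCA. JDP2, SLC3A2 and SLC7A1 held the motif too and passed no test of rapamycin in either line.

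Adding rapamycin split the ATF4 genes under both labels. ATF4 itself, the stress regulators ATF3 and PPP1R15A and the neutral amino acid transporter SLC1A4 rose. The serine enzyme PSAT1, the proline enzyme ALDH18A1, the glutamine transporters SLC38A1 and SLC38A2, the lipoprotein receptor VLDLR and the tRNA export factor XPOT fell. A gene is said to have risen or fallen where edgeR's quasi-likelihood test passed at an adjusted p under 0.05 (Benjamini-Hochberg over all genes tested), and to have been called where the fold change was also over 1.5. In A375, 7 genes rose and 11 fell of the 34 tested, beside 14.3% and 13.8% of all 18844 genes. In SK-MEL-28, 6 rose and 9 fell of 35, beside 8.83% and 10.1% of all 18897 genes. These genes had more counts than most: their median was 1126 counts in A375 and 1259 in SK-MEL-28, against 379.6 and 385.5 over all genes tested, and deeper genes pass at smaller changes. In bulk RNA, fewer cells that express a gene and less RNA per cell cannot be told apart.

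Most of the changes were small. With the fold threshold, VLDLR alone was called in A375, as lower, beside a background of 2.80%, and none was called higher (background 3.09%), while 7 had risen without it. SLC1A4 was called higher in SK-MEL-28 (background 1.85%) and VLDLR and STC2 lower (background 3.14%). The median log2 fold change over the genes was 0.064 in A375, beside -0.0051 over all genes tested, and 8.3e-06 in SK-MEL-28, beside 0.0053. Between the 3 libraries with rapamycin this median had an SD of 0.0734 (A375) or 0.0922 (SK-MEL-28), more than its size, and in A375 it was 0.0375 without etoposide replicate 1 and 0.0185 when scaled by library totals.

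**Figure D1:**
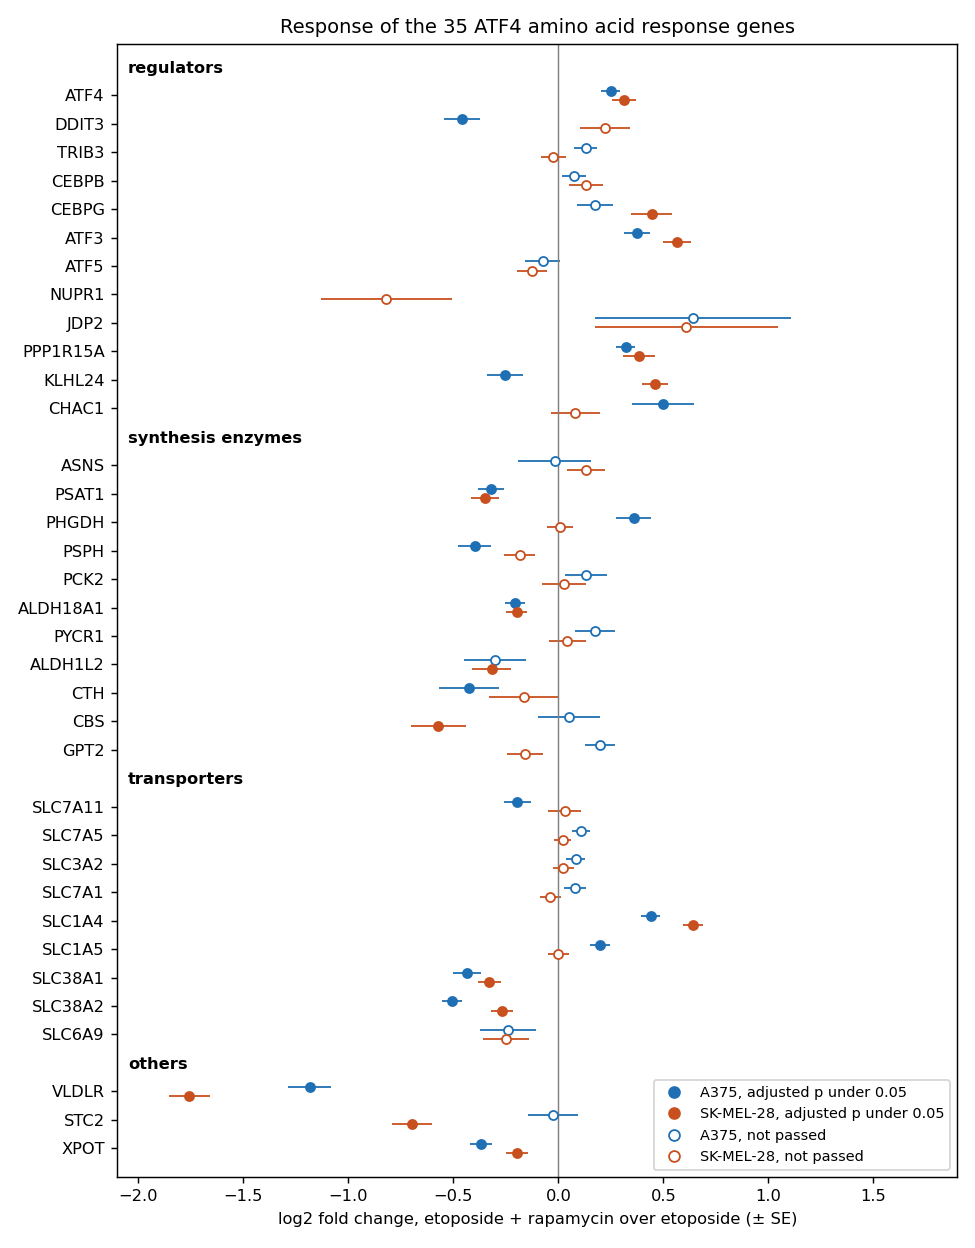
Log2 fold change of etoposide + rapamycin over etoposide with its standard error (x axis) for each of the 35 genes by role, in A375 (blue) and SK-MEL-28 (orange); filled points passed an adjusted p under 0.05. VLDLR lies farthest to the left in both lines at -1.18 and -1.76, and NUPR1 has no A375 point because it was too low to be tested there.

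Among the regulators, ATF4, ATF3 and PPP1R15A rose in both lines. Of the 11 tested in A375, 4 rose (those and CHAC1) and 2 fell (DDIT3 and KLHL24), which is 36.4% and 18.2% beside 14.3% and 13.8% of all genes, and CHAC1 and KLHL24 each passed in 9 of 15 settings. Of the 12 tested in SK-MEL-28, 5 rose (41.7% beside 8.83%), those in both lines with CEBPG and KLHL24, and none passed as lower (10.1% of all genes).

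ATF4 (chr22:39519695-39522683, GENCODE 44, GRCh38) is the factor at the head of the response. Its level was 211, 227 and 229 CPM in A375 with etoposide and 260.1, 264 and 265 with rapamycin added. In SK-MEL-28 it was 165, 187 and 177 with etoposide and 207, 226 and 225 with rapamycin. Every rapamycin library lay above every etoposide library of its line. The log2 fold changes were 0.25 ± 0.05 (SE, adjusted p = 0.0014) and 0.31 ± 0.06 (adjusted p = 0.00257) by edgeR. These are levels of the message, and ATF4 is controlled largely in translation, which was not measured.

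ATF3, a stress-induced factor that acts downstream of ATF4, moved further. In A375 it went from 49.3, 49.0 and 50.5 CPM to 70.0, 60.8 and 61.1 CPM, and in SK-MEL-28 from 33.0, 34.0 and 33.0 CPM to 45.6, 50.0 and 52.5 CPM, with no overlap in either line. Log2 fold changes were 0.37 ± 0.06 and 0.56 ± 0.07 (edgeR adjusted p = 0.000766 and 7.05e-05). PPP1R15A, the phosphatase subunit that removes the phosphate from eIF2 and ends the response, rose from 157, 158 and 167 to 199, 194 and 207 CPM in A375. In SK-MEL-28 it rose from 89.3, 105 and 96.0 to 112, 130.5 and 137 CPM. The log2 fold changes of PPP1R15A were 0.32 ± 0.05 and 0.38 ± 0.08 (edgeR adjusted p = 0.000309 and 0.00379), and the groups were apart in both lines.

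The 2 cell lines parted over DDIT3 and KLHL24. DDIT3, the factor CHOP that is tied to cell death under lasting stress, was 19.5, 20.2 and 20.4 CPM in A375 with etoposide and 15.2, 13.9 and 14.5 CPM with rapamycin. SK-MEL-28 libraries stood at 14.9, 13.4 and 14.8 CPM with etoposide and 13.7, 18.0 and 18.7 CPM with rapamycin. It fell in A375 (log2 fold change -0.46 ± 0.09, edgeR adjusted p = 0.00165), while in SK-MEL-28 the groups overlapped, with 1 rapamycin library low and the other two high (0.22 ± 0.12, adjusted p = 0.225). The difference between the responses, SK-MEL-28 less A375, was 0.69 ± 0.15 on the log2 scale (adjusted p = 0.0118). Exons of DDIT3 overlap those of MARS1 on the other strand, which had 5274 counts on average against 492 for DDIT3, and the strand setting of the counting is not given in the sources used here. MARS1 did not pass in either line (adjusted p = 0.0829 and 0.786).

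KLHL24, a substrate adaptor of a ubiquitin ligase, was 31.5, 29.9 and 35.9 CPM in A375 with etoposide and 29.3, 26.2 and 25.8 CPM with rapamycin. In SK-MEL-28 it was 30.5, 29.5 and 30.8 CPM with etoposide and 43.3, 40.5 and 41.4 CPM with rapamycin. It rose in SK-MEL-28 (log2 fold change 0.46 ± 0.06, edgeR adjusted p = 0.000264) and fell in A375 (-0.25 ± 0.09, adjusted p = 0.0443). The fall in A375 did not pass without A375 etoposide replicate 1 or 3 or without A375 etoposide + rapamycin replicate 2 or 3, where the adjusted p reached 0.179. The difference between the lines itself, 0.72 ± 0.10 (adjusted p = 0.000692), passed in all 20 settings.

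CEBPG, the C/EBP partner of ATF4, was 13.2, 15.0 and 14.9 CPM in SK-MEL-28 with etoposide and 21.6, 18.7 and 18.5 CPM with rapamycin. It rose there (log2 fold change 0.44 ± 0.10, edgeR adjusted p = 0.00708), while in A375 it went from 17.1, 18.2 and 18.3 to 18.8, 20.02 and 21.4 CPM (0.17 ± 0.09, adjusted p = 0.163). The responses were not shown to differ (adjusted p = 0.227). CHAC1, which degrades glutathione, was 5.73, 4.19 and 4.57 CPM in A375 with etoposide and 6.72, 6.66 and 7.05 CPM with rapamycin (log2 fold change 0.50 ± 0.15, edgeR adjusted p = 0.0246). In SK-MEL-28 it stood at 7.29, 7.58 and 7.60 CPM with etoposide and 7.26, 8.22 and 8.32 CPM with rapamycin (0.08 ± 0.12, adjusted p = 0.694). Responses of CHAC1 were not shown to differ (edgeR adjusted p = 0.1998). The rise of CHAC1 did not pass when any A375 library other than etoposide replicate 1 was left out, with an adjusted p of up to 0.09.

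TRIB3, a pseudokinase that restrains ATF4 and is among its steadiest targets, did not pass in either line. It was 55.8, 60.9 and 54.6 CPM in A375 with etoposide and 62.3, 60.9 and 63.7 CPM with rapamycin. Levels in SK-MEL-28 were 65.4, 68.2 and 69.4 CPM with etoposide and 61.1, 69.2 and 69.8 CPM with rapamycin. Log2 fold changes were 0.13 ± 0.06 and -0.02 ± 0.06 (edgeR adjusted p = 0.102 and 0.829). CEBPB, ATF5 and JDP2, 3 more factors of the same basic zipper family, did not pass either. CEBPB ranged from 139.7 to 161 CPM in A375 and from 65.9 to 90.5 CPM in SK-MEL-28. ATF5 ranged from 36.1 to 46.4 CPM and from 41.5 to 50.7 CPM, and its exons overlap those of NUP62 on the other strand, which rose in both lines by 0.42 and 0.20 on the log2 scale. JDP2 stayed at 0.229 to 1.24 CPM, with 7 counts in its lowest library. NUPR1, a small stress-induced chromatin protein, was at 0 to 0.336 CPM in A375, too low to be tested, and at 1.73, 1.82 and 2.34 CPM with etoposide and 0.742, 1.68 and 0.943 CPM with rapamycin in SK-MEL-28 (adjusted p = 0.0876).

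**Figure D2:**
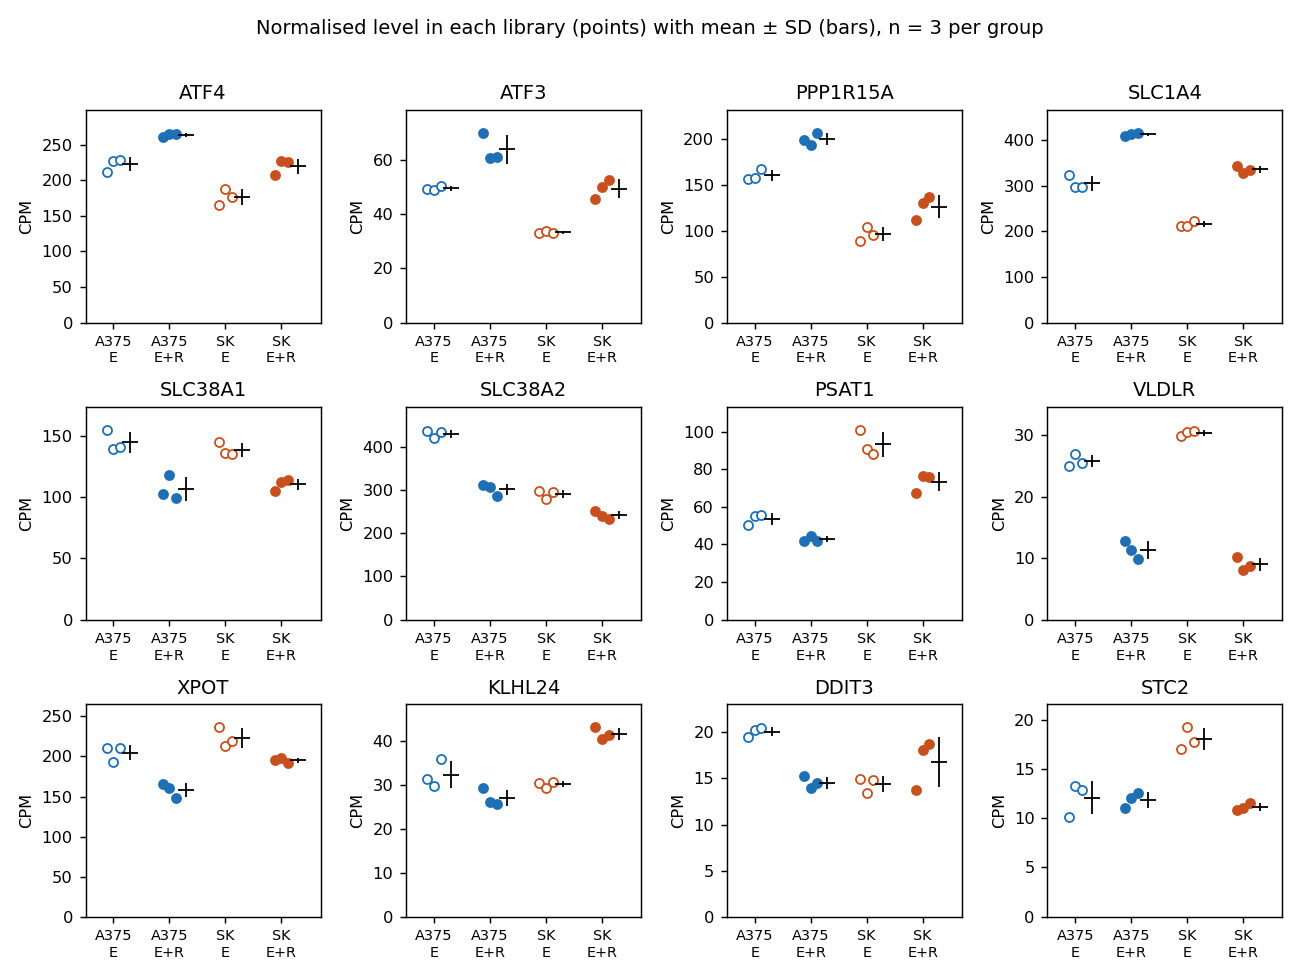
TMM-scaled CPM (y axis, from 0) in each library for 12 of the genes, with open points for etoposide (E), filled points for etoposide + rapamycin (E+R), and bars for mean ± SD of 3 libraries; SK stands for SK-MEL-28. ATF4, ATF3, PPP1R15A and SLC1A4 lie higher with rapamycin in both lines, VLDLR, PSAT1, XPOT, SLC38A1 and SLC38A2 lie lower in both, and KLHL24 lies lower in A375 and higher in SK-MEL-28.

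Among the synthesis enzymes, PSAT1 and ALDH18A1 fell in both lines. In A375, 4 fell (those with PSPH and CTH) and 1 rose (PHGDH) of 11, which is 36.4% and 9.09% beside 13.8% and 14.3% of all genes, and the 11 log2 fold changes split into 6 below and 5 above 0 with a median of -0.018. In SK-MEL-28, 4 fell (those with ALDH1L2 and CBS), 36.4% beside 10.1%, and none passed as higher (8.83% of all genes).

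The 3 enzymes that make serine from a glycolytic intermediate did not move as a unit. PHGDH, the first step, was 34.1, 26.9 and 32.5 CPM in A375 with etoposide and 40.2, 38.9 and 40.5 CPM with rapamycin, a rise (log2 fold change 0.36 ± 0.08, edgeR adjusted p = 0.00696). In SK-MEL-28 it was 46.8, 42.5 and 43.7 CPM with etoposide and 44.6, 46.4 and 43.1 CPM with rapamycin (0.01 ± 0.06, adjusted p = 0.943). Responses of PHGDH were not shown to differ between the lines (edgeR adjusted p = 0.0703). PSAT1, the aminotransferase of the next step, fell in both lines. It went from 50.1, 55.1 and 55.8 to 42.1, 44.5 and 41.8 CPM in A375 and from 101, 90.9 and 88.0 to 67.6, 76.5 and 76.0 CPM in SK-MEL-28, with no overlap. The log2 fold changes of PSAT1 were -0.32 ± 0.06 and -0.35 ± 0.06 (edgeR adjusted p = 0.00172 and 0.00234). PSPH, the phosphatase of the last step, went from 26.1, 26.4 and 27.5 to 20.6, 20.8 and 19.1 CPM in A375 (-0.40 ± 0.08, adjusted p = 0.00237). In SK-MEL-28 PSPH went from 37.4, 37.3 and 40.2 to 31.7, 37.1 and 32.6 CPM (-0.18 ± 0.07, adjusted p = 0.105). Its responses were not shown to differ either (edgeR adjusted p = 0.226). In A375, then, the first enzyme rose while both later ones fell.

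ALDH18A1, which starts proline synthesis, fell in both lines. It was 111, 111 and 107 CPM in A375 with etoposide and 94.9, 96.9 and 91.7 CPM with rapamycin, and in SK-MEL-28 158, 149.9 and 158 CPM with etoposide and 138, 130.2 and 139 CPM with rapamycin. Log2 fold changes were -0.21 ± 0.05 and -0.20 ± 0.05 (edgeR adjusted p = 0.00504 and 0.0168). The pass in SK-MEL-28 was lost without SK-MEL-28 etoposide + rapamycin replicate 2 or etoposide replicate 3. PYCR1, a later enzyme of the same route, ranged from 24.8 to 33.4 CPM in A375 and from 19.7 to 22.3 CPM in SK-MEL-28 and did not pass. ALDH1L2, a mitochondrial folate enzyme, was 13.9, 14.0 and 13.8 CPM in SK-MEL-28 with etoposide and 10.6, 11.6 and 11.2 CPM with rapamycin (log2 fold change -0.32 ± 0.09, edgeR adjusted p = 0.0333). In A375 it was 7.80, 5.98 and 6.39 CPM with etoposide and 5.43, 4.95 and 5.94 CPM with rapamycin, a change of like size with a wider error (-0.30 ± 0.15, adjusted p = 0.151). The pass in SK-MEL-28 was lost when any single library of that line was left out, with an adjusted p of up to 0.0973.

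CBS and CTH turn homocysteine into cysteine. CBS was 6.18, 6.25 and 6.74 CPM in SK-MEL-28 with etoposide and 4.33, 4.25 and 4.36 CPM with rapamycin, and 4.75, 4.47 and 5.51 CPM with etoposide and 4.80, 5.42 and 5.00 CPM with rapamycin in A375. It fell in SK-MEL-28 (log2 fold change -0.57 ± 0.13, edgeR adjusted p = 0.00867) and did not pass in A375 (0.05 ± 0.15, adjusted p = 0.835), and the difference did not pass (adjusted p = 0.0555). Reads of CBS can be split with its near-identical copy CBSL, which had 127 counts on average against 156 for CBS and fell in SK-MEL-28 as well (-0.68), so the value of either row alone is uncertain. CTH ranged from 5.09 to 5.90 CPM in A375 with etoposide and from 4.09 to 4.27 CPM with rapamycin (log2 fold change -0.42 ± 0.14, adjusted p = 0.0436), a pass that held in 6 of 15 settings and was lost without A375 etoposide + rapamycin replicate 1, 2 or 3 or A375 etoposide replicate 1 or 3.

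ASNS, the enzyme of asparagine synthesis and a standard readout of ATF4, did not pass. It was 20.8, 26.0 and 17.5 CPM in A375 with etoposide and 19.2, 27.3 and 16.8 CPM with rapamycin. The SK-MEL-28 levels were 26.6, 25.6 and 25.6 CPM with etoposide and 24.4, 30.6 and 30.5 CPM with rapamycin. The A375 libraries overlapped and were scattered, giving -0.02 ± 0.17 (edgeR adjusted p = 0.953), and SK-MEL-28 gave 0.13 ± 0.09 (adjusted p = 0.365). Part of the ASNS locus is counted in other rows. Of these, AC004967.1 held 310.0 and AC079781.5 held 214 counts on average against 727 for ASNS, so the ASNS row alone is an incomplete count of the locus. PCK2 and GPT2, mitochondrial enzymes that feed carbon and nitrogen into these routes, did not pass, at 12.8 to 16.8 CPM and 27.5 to 41.2 CPM over the 12 libraries.

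The transporters went both ways. Of 9, 2 rose (SLC1A4 and SLC1A5) and 3 fell (SLC38A1, SLC38A2 and SLC7A11) in A375, and 1 rose (SLC1A4) and 2 fell (SLC38A1 and SLC38A2) in SK-MEL-28. These are 22.2% and 33.3% beside 14.3% and 13.8% of all genes in A375, and 11.1% and 22.2% beside 8.83% and 10.1% in SK-MEL-28.

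SLC1A4 (chr2:64988477-65023865), a carrier of alanine, serine and cysteine, had the largest rise among the members that passed in both lines. It was 324, 296 and 296 CPM in A375 with etoposide and 410.1, 413 and 416 CPM with rapamycin. In SK-MEL-28 it was 212, 212 and 223 CPM with etoposide and 344, 329 and 336 CPM with rapamycin. The groups were far apart against their spread, with log2 fold changes of 0.44 ± 0.05 and 0.64 ± 0.05 (edgeR adjusted p = 3.35e-05 and 2.00e-06). Its close relative SLC1A5, which carries glutamine, was 152, 164 and 163 CPM in A375 with etoposide and 177, 185 and 185 CPM with rapamycin (0.20 ± 0.05, adjusted p = 0.00734). In SK-MEL-28 SLC1A5 stayed at 179 to 191 CPM and did not pass. The difference between its responses did not pass either (edgeR adjusted p = 0.0844). The promoter stretches above show the motif in 1 window of each, and also in 1 of SLC38A1, which fell in both lines.

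SLC38A1 (chr12:46183063-46270017) and SLC38A2 (chr12:46358188-46372773), neighbouring genes on chromosome 12 whose products carry glutamine and other small neutral amino acids, both fell. SLC38A1 went from 155, 139 and 141 to 103, 118 and 99.8 CPM in A375 and from 145, 136 and 135 to 105, 113 and 114 CPM in SK-MEL-28. SLC38A2 went from 436, 419 and 434 to 311, 307 and 285 CPM and from 297, 280.1 and 294 to 252, 240.3 and 233 CPM. No rapamycin library reached an etoposide library of its line. The log2 fold changes of SLC38A1 were -0.44 ± 0.07 and -0.33 ± 0.05 (edgeR adjusted p = 0.000432 and 0.000977). Those of SLC38A2 were -0.51 ± 0.05 and -0.27 ± 0.05 (adjusted p = 8.90e-06 and 0.00263), and the fall was smaller in SK-MEL-28 by 0.25 ± 0.06 (adjusted p = 0.0346), a difference that passed in 10 of 20 settings and was lost without A375 etoposide + rapamycin replicate 2 or 3 or A375 etoposide replicate 1 or 3 or SK-MEL-28 etoposide + rapamycin replicate 1 or 2 or SK-MEL-28 etoposide replicate 2 or 3.

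The exchangers of large amino acids and cystine moved little. SLC7A5 and its partner chain SLC3A2, which together import leucine, did not pass, at 790.2 to 888 and 280.3 to 309 CPM in A375 and at 1040.3 to 1120.4 and 319.5 to 350.4 CPM in SK-MEL-28. SLC7A11, the cystine exchanger, ranged from 105 to 118 CPM in A375 with etoposide and from 92.2 to 106 CPM with rapamycin, so the groups overlapped although it passed (-0.19 ± 0.06, edgeR adjusted p = 0.0375, in 8 of 15 settings and not without A375 etoposide + rapamycin replicate 1 or 3 or A375 etoposide replicate 1 or 3). SLC7A1, the arginine carrier, and SLC6A9, a glycine carrier, did not pass, at 95.6 to 109 and 10.2 to 16.6 CPM.

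Of the genes with other roles, VLDLR and XPOT fell in both lines and STC2 in SK-MEL-28. VLDLR (chr9:2621182-2660056), a lipoprotein receptor, was 25.0, 26.9 and 25.6 CPM in A375 with etoposide and 12.8, 11.3 and 9.93 CPM with rapamycin. SK-MEL-28 libraries stood at 29.9, 30.6 and 30.7 CPM with etoposide and 10.1, 8.07 and 8.78 CPM with rapamycin. Rapamycin libraries were far below the etoposide libraries in both lines, with log2 fold changes of -1.18 ± 0.10 and -1.76 ± 0.10 (edgeR adjusted p = 6.19e-06 and 1.66e-07). The fall was larger in SK-MEL-28, and the difference between the responses was -0.57 ± 0.14 on the log2 scale (adjusted p = 0.0252), which passed in 13 of 20 settings and was lost without A375 etoposide + rapamycin replicate 1 or A375 etoposide replicate 3 or SK-MEL-28 etoposide + rapamycin replicate 2 or 3 or SK-MEL-28 etoposide replicate 2 or 3.

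STC2, a secreted glycoprotein, was 17.1, 19.3 and 17.8 CPM in SK-MEL-28 with etoposide and 10.8, 11.0 and 11.5 CPM with rapamycin (log2 fold change -0.70 ± 0.09, edgeR adjusted p = 0.000221). In A375 the groups overlapped, at 10.2, 13.3 and 12.9 CPM with etoposide and 11.0, 12.0 and 12.5 CPM with rapamycin (-0.02 ± 0.12, adjusted p = 0.907). The responses differed by -0.66 ± 0.15 (adjusted p = 0.0151), which did not pass without A375 etoposide + rapamycin replicate 3. XPOT, which exports tRNA from the nucleus, went from 210.1, 194 and 210.4 to 165, 161 and 148 CPM in A375 and from 237, 214 and 219 to 196, 198 and 192 CPM in SK-MEL-28. Log2 fold changes of XPOT were -0.37 ± 0.05 and -0.20 ± 0.05 (edgeR adjusted p = 0.00032 and 0.0207). The pass of XPOT in SK-MEL-28 was lost without etoposide replicate 1 or 3 or etoposide + rapamycin replicate 3 of that line.

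Tested directly, the response differed between the lines for 5 of the 35 genes (DDIT3, KLHL24, SLC38A2, VLDLR and STC2), beside 5.62% of all 20101 genes. Of the 10 genes with the promoter motif, 4 rose and 1 fell in A375 and 3 rose and 1 fell in SK-MEL-28. Of the 19 without it, 3 rose and 8 fell in A375 and 3 rose and 7 fell in SK-MEL-28. Over all genes tested, 14.3% rose and 13.8% fell in A375, and 8.83% rose and 10.1% fell in SK-MEL-28. These counts are a description, without a test.

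With etoposide alone, the synthesis enzymes stood higher in SK-MEL-28 and several regulators lower. Of the 35 genes, 16 were higher and 9 lower in SK-MEL-28 than in A375, beside 15.1% and 16.7% of all 20101 genes, and with the fold threshold 4 were called higher (NUPR1, ALDH1L2, PSAT1 and CHAC1; background 5.39%) and 2 lower (CEBPB and PPP1R15A; background 7.16%). NUPR1 was too low to be tested in A375 and met the count filter here only through the libraries labelled SK-MEL-28. Its place among those higher was therefore largely set by the filter. Among the enzymes 7 of 11 were higher and 1 lower (PYCR1). Among the transporters 4 of 9 were higher and 2 lower, and among the regulators 4 of 12 were higher, NUPR1 included, and 6 lower. The labelled line and the culture it was grown in cannot be told apart, and the doubt on the identity of the libraries bears on all of these values.

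The largest enzyme differences were those of ALDH1L2, at 6.72 ± 0.954 CPM in A375 and 13.9 ± 0.119 CPM in SK-MEL-28 (SD, n = 3; log2 difference 1.05 ± 0.11, adjusted p = 1.55e-06 by edgeR), and of PSAT1 (0.80 ± 0.07, adjusted p = 6.63e-08). The serine enzymes PHGDH and PSPH were higher by 0.51 and 0.52 on the log2 scale, so that all 3 enzymes of that route stood higher in SK-MEL-28. Of the regulators, CEBPB (-0.93 ± 0.08), PPP1R15A (-0.73 ± 0.07), ATF3 (-0.57 ± 0.06), DDIT3 (-0.48 ± 0.10), ATF4 (-0.33 ± 0.05) and CEBPG (-0.31 ± 0.09) were lower. SLC1A4 and SLC38A2 were the transporters that stood lower, with log2 differences of -0.51 and -0.56, and SLC7A11 and SLC7A5 were higher by 0.45 and 0.41. NUPR1 had the largest difference (3.50 ± 0.66) on a level near the limit of detection in A375. As it met the count filter only through the SK-MEL-28 libraries, this value is not support for a difference between the lines.

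**Figure D3:**
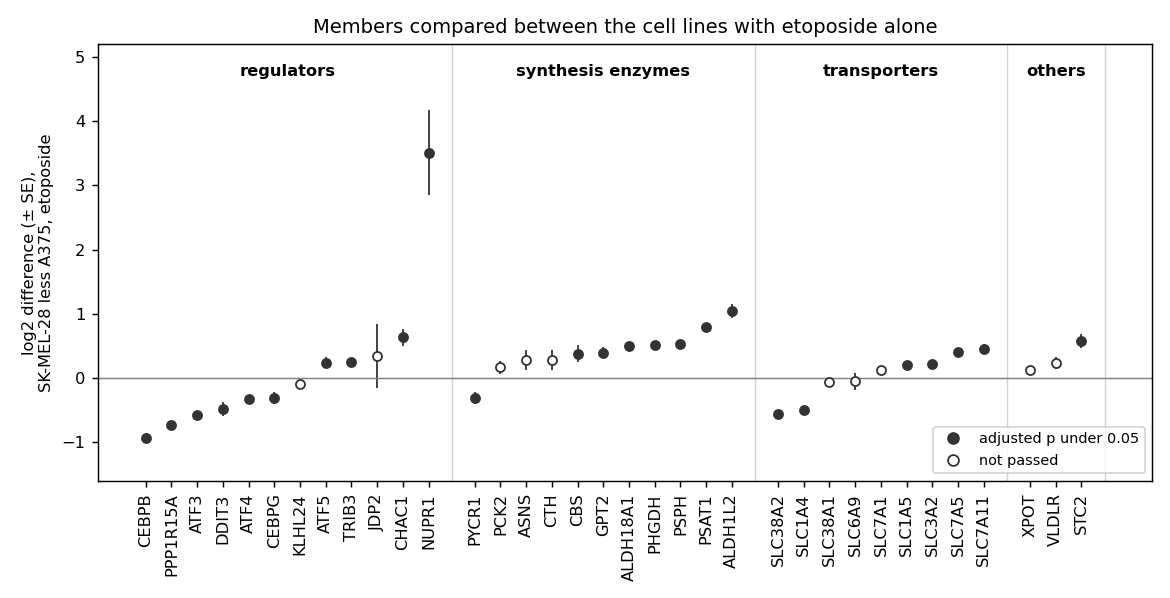
Log2 difference in level between SK-MEL-28 and A375, both with etoposide alone, with its standard error (y axis), for each gene sorted within its role; filled points passed an adjusted p under 0.05. The synthesis enzymes lie mostly above 0, ALDH1L2 highest at 1.05, while CEBPB lies lowest at -0.93. NUPR1 at 3.50 rests on few counts and met the count filter only through the SK-MEL-28 libraries.

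Per length of merged exons (CPM per kilobase, the scale on which genes can be set against each other), SLC7A5 was the most abundant of the genes, at 169.7 in A375 and 225 in SK-MEL-28 with etoposide. ATF4 followed at 85.1 and 67.5, and CEBPB stood at 79.7 and 41.7. VLDLR, the gene that fell most, was low on this scale, at 1.56 and 1.84 CPM per kilobase. Its merged exons, taken over all annotated transcripts, add up to 16507 bases, and a shorter expressed transcript would place it higher. The mean level of JDP2 was under 0.1 in both.

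Of 34 further reported ATF4 targets tested, 2 rose and 15 fell in A375 and 3 rose and 10 fell in SK-MEL-28, and their median log2 fold changes were -0.13 and -0.12. As shares of the list, those that rose and those that fell were 5.88% and 44.1% in A375, beside 14.3% and 13.8% of all genes, and 8.82% and 29.4% in SK-MEL-28, beside 8.83% and 10.1%. DDIT4, an inhibitor of mTORC1, went from 48.7, 52.2 and 46.8 to 33.2, 29.1 and 29.4 CPM in A375 and from 88.7, 83.2 and 102 to 43.4, 36.1 and 37.9 CPM in SK-MEL-28 (log2 fold changes -0.68 ± 0.07 and -1.23 ± 0.08). GDF15, a stress-induced cytokine, fell by 0.90 and 0.60, and RHOQ, a small GTPase, fell by 0.67 and 0.47. MTHFD1L, a mitochondrial folate enzyme, rose by 0.53 and 0.56, against the direction of most of that list.

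Among 18 genes for the eIF2 kinases, phosphatases and exchange factor, 1 rose and 7 fell in A375 and none rose and 3 fell in SK-MEL-28. In A375 that is 5.56% up and 38.9% down, and in SK-MEL-28 16.7% down, beside the same shares of all genes. EIF2AK3, the kinase PERK that senses stress of the endoplasmic reticulum, fell in both lines, from 21.4, 20.3 and 22.1 to 16.0, 17.4 and 16.1 CPM in A375 and from 23.8, 19.6 and 21.8 to 16.8, 15.9 and 14.2 CPM in SK-MEL-28 (-0.36 ± 0.08 and -0.48 ± 0.10). EIF2AK2, the kinase PKR, fell in A375 (-0.15 ± 0.05, edgeR adjusted p = 0.0426) and did not pass in SK-MEL-28 (0.06 ± 0.05, adjusted p = 0.477). EIF2AK1, which senses haem, and EIF2AK4, the kinase GCN2 that senses uncharged tRNA, did not pass in either line, with EIF2AK4 at -0.03 ± 0.05 and 0.03 ± 0.05.

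Of 22 other amino acid enzymes tested, 2 rose and 4 fell in A375 and 1 rose and 4 fell in SK-MEL-28. Those that rose and fell made up 9.09% and 18.2% in A375, beside 14.3% and 13.8% of all genes, and 4.55% and 18.2% in SK-MEL-28, beside 8.83% and 10.1%. SHMT1, which interconverts serine and glycine (-0.30 ± 0.07 and -0.37 ± 0.06), and the branched-chain aminotransferase BCAT1 (-0.34 ± 0.10 and -0.45 ± 0.07) fell in both. Of the other plasma membrane amino acid transporters, 1 rose and 3 fell of 15 tested in A375, and 3 rose and 4 fell of 16 in SK-MEL-28, to be read against the same shares of all genes. SLC7A8, an exchanger related to SLC7A5, fell in both, from 3.05, 3.68 and 4.25 to 0.875, 0.875 and 0.403 CPM in A375 and from 3.04, 2.32 and 3.10 to 0.807, 1.32 and 1.72 CPM in SK-MEL-28, on low counts.

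**Figure D4:**
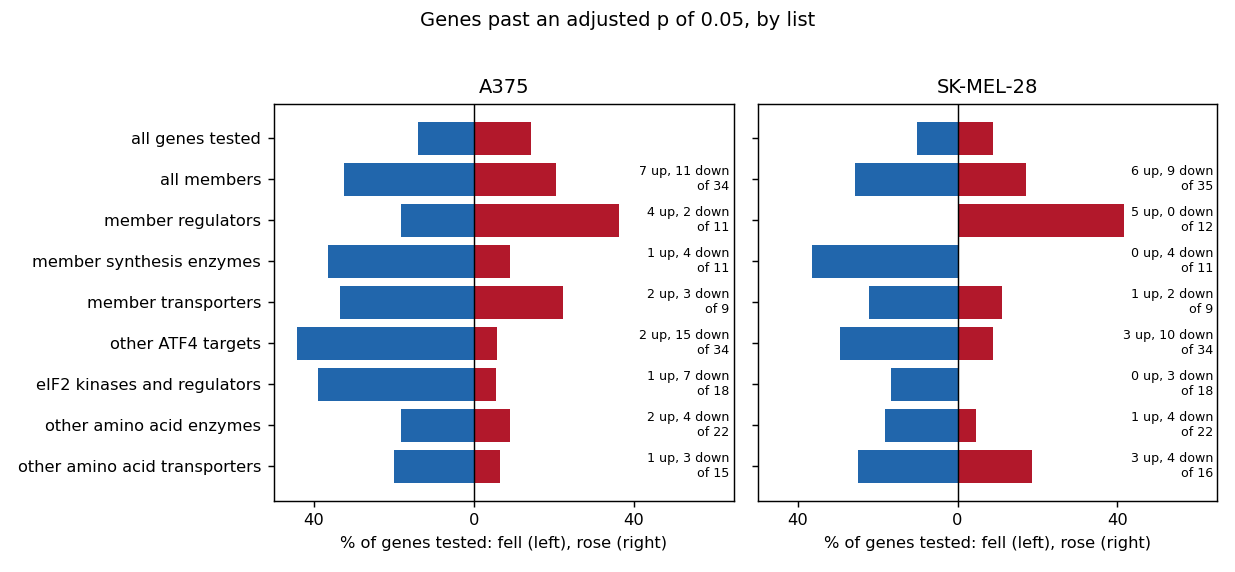
Share of the genes tested in each list (x axis, percent) that fell (left, blue) or rose (right, red) at an adjusted p under 0.05, in A375 and SK-MEL-28, with the counts printed beside each bar. Regulators had 4 up and 2 down of 11 in A375 and 5 up and 0 down of 12 in SK-MEL-28, and the other ATF4 targets had 2 up and 15 down and 3 up and 10 down of 34; the top bar gives all genes tested.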

How the data were processed

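RNA of 12 libraries was sequenced after polyA selection. The authors deposited raw counts per gene, made with HISAT2 and StringTie on GRCh38 (hg38), without normalization or pooling; how coverage became counts and how strand was treated are not given in the sources used here. Another 5 rows, without a gene name and with 0.00099% to 0.0053% of a library's counts, were left out.

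Counts were tested with edgeR 4.0.16 in R 4.3.3 (filterByExpr at a minimum count of 10, TMM, glmQLFit, glmQLFTest, Benjamini-Hochberg over all genes tested): etoposide + rapamycin against etoposide within each line, and a fit of all 12 libraries for the difference between the responses and between the lines. Calls used an adjusted p under 0.05 and a fold over 1.5, as in the study's methods. Standard errors (SE) were derived from each fitted log2 value and its F statistic. The common biological coefficient of variation was 0.0957 in both lines, and replicate libraries differed by more than sampling noise, so none was counted as a duplicate. Alternatives were DESeq2 1.42.0, other scalings and filters, a replicate block, halved counts and leaving out each library.

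The scripts were tested on simulated data: p-values were calibrated where the spread followed its trend, but with gene-wise spread the share of false calls ran above the nominal 0.05, so passes close to the threshold are less certain than their adjusted p.

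The genes and lists were chosen with earlier results of these data known. Values in every library are given for the 20 genes with the smallest adjusted p past 0.05 and for TRIB3 and ASNS, and ranges for the rest. From the other lists, at most 4 genes that passed in both lines with the largest smaller change are named, and the eIF2 kinases. Some genes of these lists are not reported here. The rows that share a locus, the promoter stretches, the check of the cell line labels and the alternatives for single genes between the lines were chosen after seeing the data. RefSeq windows were not matched for NUPR1, PSPH, PYCR1, ALDH1L2, GPT2 and SLC7A11.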

Additional observations from a re-analysis of the deposited data

Results flagged for a closer look

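The response to rapamycin differed between the lines, by the test of the difference itself in the fit of all 12 libraries, for 5 of the genes. SK-MEL-28 less A375, the log2 difference was 0.72 for KLHL24 (edgeR adjusted p = 0.000692), 0.69 for DDIT3 (adjusted p = 0.0118), -0.66 for STC2 (adjusted p = 0.0151), -0.57 for VLDLR (adjusted p = 0.0252) and 0.25 for SLC38A2 (adjusted p = 0.0346). KLHL24 had 3 of 3 rapamycin libraries above all etoposide libraries in SK-MEL-28 and 3 of 3 below them in A375. DDIT3 was below in 3 of 3 in A375 and overlapped in SK-MEL-28, and STC2 was below in 3 of 3 in SK-MEL-28 and overlapped in A375. VLDLR and SLC38A2 were below in 3 of 3 in both lines and differed in size. The cause of these differences was not tested.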

How the results depend on the processing

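No gene that passed changed direction under any alternative run. Of the passes, 14 of 18 in A375 held in every setting and 12 of 15 in SK-MEL-28; KLHL24, CHAC1, CTH and SLC7A11 in A375 and ALDH18A1, ALDH1L2 and XPOT in SK-MEL-28 were lost in at least 1. Between the lines with etoposide, 21 of 25 held, and CEBPG (lost without SK-MEL-28 etoposide replicate 1), PYCR1 (without that or A375 etoposide replicate 3), CBS (without A375 etoposide replicate 1 or 2 or SK-MEL-28 etoposide replicate 2 or 3) and ATF5 (without most etoposide libraries) did not. Some genes that did not pass in the main run did so elsewhere. In A375, GPT2 passed in 4 of 15 settings, SLC7A5 in 2 and TRIB3 in 1, with DESeq2 among those of GPT2 and SLC7A5. In SK-MEL-28, DDIT3, NUPR1, PSPH and GPT2 passed in 1 setting each, where a single library was left out. Without the fold threshold the calls were 18 in A375, 15 in SK-MEL-28 and 25 between the lines. The count of genes whose response differed moved as well: 5 became 9 with a filter of 10 counts in every library, 10 with DESeq2, and 3 with a replicate block, and leaving out 1 library gave 3 to 6. It was 3 without A375 etoposide + rapamycin replicate 3, A375 etoposide replicate 3, SK-MEL-28 etoposide + rapamycin replicate 2, or SK-MEL-28 etoposide replicate 2 or 3. With the replicate block, KLHL24, CTH and SLC7A11 in A375, ALDH1L2 in SK-MEL-28 and the differences of SLC38A2 and VLDLR between the responses no longer passed. The differences of DDIT3 and KLHL24 passed in all 20 settings, while SLC38A2, VLDLR and STC2 did not; for the filter and DESeq2 the cause was not tested. Leaving out 1 library gave 1 to 2 calls in A375 (2 without etoposide replicate 1) and 3 to 4 in SK-MEL-28. Same-numbered libraries did not deviate together (correlations of -0.030 to 0.021), so the numbers were not taken to pair libraries. With 3 libraries a group, small changes of low genes such as JDP2 and NUPR1 could not be resolved at this depth.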
